A study of Homo sapiens with 5 samples.

Results

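The subject is a group of 10 genes known as targets of ENL or of MLL fusion proteins in leukaemia, MYC, PBX3, JMJD1C, IGF2BP3, MEIS1, HOXA9, HOXA10, MYB, BCL2 and CDK6. They were chosen by name from knowledge of leukaemia, with earlier results of these data known. All 10 were found among the 20037 protein-coding genes of the RefSeq table used here. They were examined in HepG2, an established human liver cancer line, with peak lists from CUT&Tag, an assay in which an antibody brings a DNA-cutting transposase to chromatin. The 5 lists, from 1 library each, were for Flag-tagged ENL carrying the substitution Y78A, Flag-tagged wild type ENL, and the histone marks H3K9bhb (β-hydroxybutyrylation of histone H3 at lysine 9), H3K9cr (crotonylation) and H3K9ac (acetylation). Per the design text, the Flag-ENL proteins were stably expressed. The promoter that drove them, the number of clones and the level of the cells' own ENL are not given in the labels, nor is it given whether the H3K9cr and H3K9ac libraries came from the same cells. Groups were taken from the sample titles. The peak names inside the H3K9ac list begin with ENL1 and do not name the mark, so every value given for H3K9ac rests on the title alone. With 1 library per group there was no replicate check and no test of any difference between libraries.

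ENL, encoded by MLLT1, belongs to complexes that help RNA polymerase II through elongation, and its YEATS domain binds acylated lysines on histones. Y78A removes a tyrosine of the pocket that holds the acylated lysine. In some acute leukaemias part of ENL is fused to MLL, and the fusion keeps genes of blood progenitors active, among them the HOXA genes and their cofactor MEIS1. In these leukaemias unfused ENL is also needed to keep several of the same genes transcribed.

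A peak counted at a gene end when it overlapped the window reaching 1 kb to either side of the first or last base of the gene, inside when it overlapped the gene elsewhere, and in the flank when it lay within 20 kb outside. At gene ends Y78A had a peak at 3 of the 10 genes (MYC, PBX3 and JMJD1C), where 14.6% of all protein-coding genes had one. Wild type ENL had a peak at these 3 genes and at IGF2BP3, so at 4 of 10, beside 28.6% of all genes. H3K9bhb was at the ends of the same 3 genes as Y78A, beside 23.8% of all genes. H3K9cr was at the end of BCL2 alone among the 10, beside 4.49% of all genes. H3K9ac was at 7 of 10, beside 56.4% of all genes, and the genes without it were HOXA9, HOXA10 and MYB. The state of MYC, PBX3 and JMJD1C, with both ENL proteins, H3K9bhb and H3K9ac at an end and no H3K9cr, was that of 1847 protein-coding genes (9.22%). With 10 genes, 1 gene more or less moves a share by 10 percentage points, and nothing particular to the group is read from these counts. They also depend on the window and on the length of the lists. With windows of 500 bp Y78A was at 1 of the 10 genes (13.4% of all protein-coding genes) and wild type ENL at 2 (26.8%). With every list cut to the 3852 peaks of the shortest, Y78A was at 2 (10.7%), wild type ENL at 2 (11.9%) and H3K9ac at 0 (16.9%). Over the annotated starts (250 bp before to 50 bp after) of the 9 genes that have one in the sequence table, Y78A had a peak at 2 genes (14.7% of the protein-coding genes with such a window), wild type ENL at 2 (28.8%), H3K9bhb at 2 (23.9%), H3K9cr at 0 (3.88%) and H3K9ac at 4 (54.8%).

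**Figure D1:**
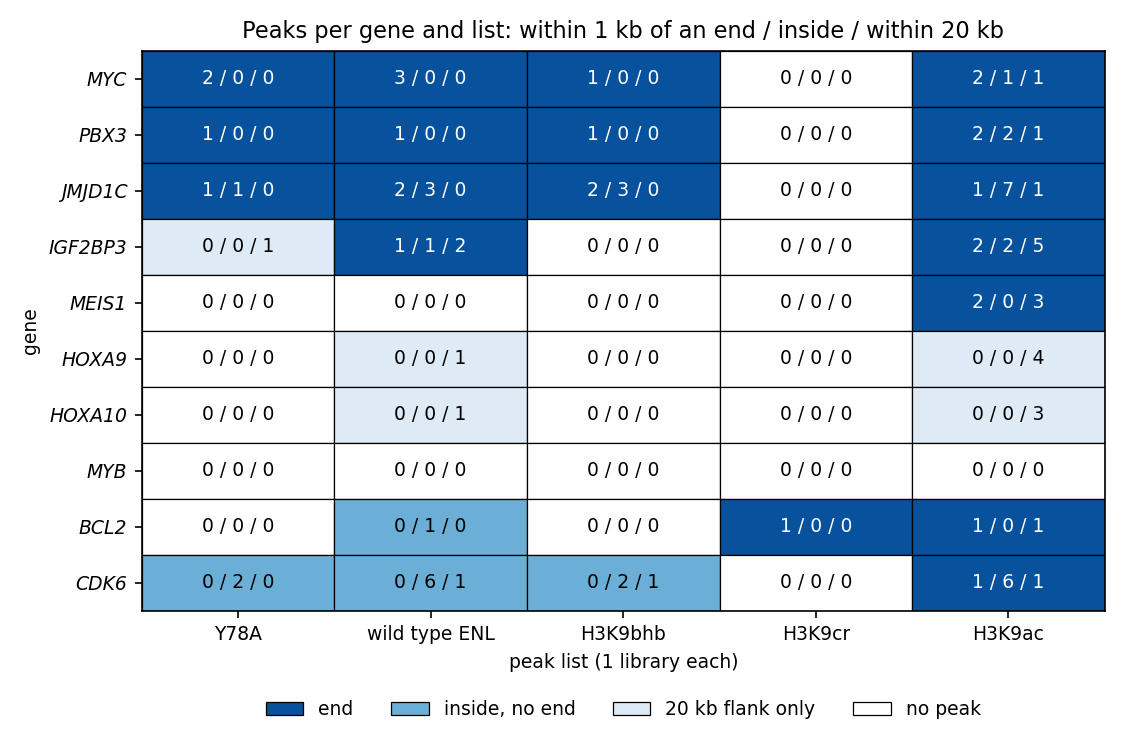
Numbers of peaks for each gene (rows) in each list (columns), given as peaks within 1 kb of a gene end, peaks inside the gene and peaks within 20 kb outside, with colour showing the closest class. MYC, PBX3 and JMJD1C have end peaks in 4 lists, MYB has no peak in any list, and H3K9cr has 1 peak at BCL2 only.

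Counting peaks anywhere in the gene added CDK6 to the Y78A genes, BCL2 and CDK6 to the wild type ENL genes and CDK6 to the H3K9bhb genes. Y78A then stood at 4 of 10 genes (19.1% of all protein-coding genes), wild type ENL at 6 (35.9%), H3K9bhb at 4 (31.2%), H3K9cr at 1 (9.34%) and H3K9ac at 7 (64.8%). Long genes hold more peaks, and 6 of the 10 genes span at least 100 kb. Among these 6, Y78A had a peak in 3, wild type ENL in 5, H3K9bhb in 3, H3K9cr in 1 and H3K9ac in all 6. Of the 3356 protein-coding genes of that length, 23% had a Y78A peak, 44.3% a wild type peak, 42.4% an H3K9bhb peak, 19% an H3K9cr peak and 69.2% an H3K9ac peak. Of the 4 shorter genes only MYC had a peak at an end or inside, in the lists of Y78A (18.3% of protein-coding genes under 100 kb), wild type ENL (34.2%), H3K9bhb (28.9%) and H3K9ac (64%), and H3K9cr had 0 of the 4 (7.41%).

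With the flanks included, Y78A reached 5 genes (28.8% of all protein-coding genes), wild type ENL 8 (49.7%), H3K9bhb 4 (44.5%), H3K9cr 1 (15.1%) and H3K9ac 9 (75.6%). The genes gained in the flank were IGF2BP3 for Y78A, HOXA9 and HOXA10 for wild type ENL, and HOXA9 and HOXA10 for H3K9ac. A flank peak can belong to a neighbour, and HOXA9 and HOXA10 share flank peaks with each other.

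**Figure D2:**
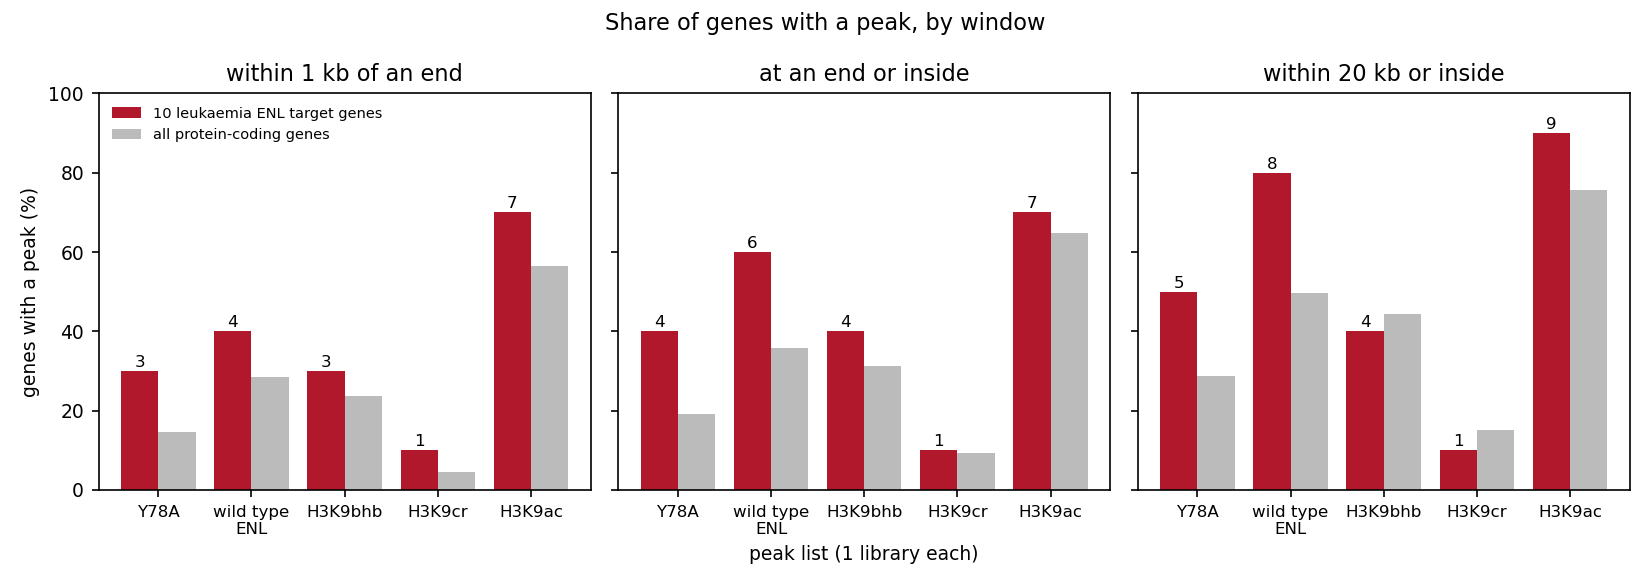
Percentage of genes with a peak (vertical axis) in each list (horizontal axis), for the 10 leukaemia ENL target genes (red, number of genes above the bar) and all protein-coding genes (grey), in 3 windows. The red bar exceeds the grey bar in every list at gene ends and inside genes, and lies below it for H3K9bhb and H3K9cr once the 20 kb flanks are included. With 10 genes, 1 gene moves a red bar by 10 percentage points. At an end or inside, the bars nearly match for H3K9cr (1 gene, 9.34%) and H3K9ac (7 genes, 64.8%). Of the 10 genes 6 span at least 100 kb, and the grey bars make no allowance for length. Nothing particular to the group is read from the bars.

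The label of the line was checked against marker genes. H3K9ac was at a gene end of 7 of 12 liver marker genes, a share near the 56.4% of all genes, and of 0 of 12 blood and bone marrow marker genes, and no list had a gene-end peak at any of the 12 blood markers. Among the liver markers, ALB, AFP, TTR, SERPINA1 and FGB had no gene-end peak in any list. The lists held 5422 peaks for Y78A, 11394 for wild type ENL, 9176 for H3K9bhb, 3852 for H3K9cr and 31493 for H3K9ac on the standard chromosomes, so a list's length alone changes how many genes it reaches. Depth is described by the number of fragments at a summit, which was recovered from the deposited fold and p of each peak. The median summit held 21 fragments in Y78A, 23 in wild type ENL, 21 in H3K9bhb, 22 in H3K9cr and 33 in H3K9ac. At the most frequent background of each list the weakest called summit held 8, 9, 8, 10 and 9 fragments in that order of lists, so a site without a peak may still hold fewer fragments than that, or more where the local background is high. Intervals given with fragment numbers are exact 95% Poisson intervals and cover counting error only.

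The HOX proteins and their cofactors are considered first. HOXA9 and HOXA10 encode homeobox transcription factors of the posterior HOXA cluster that are active in blood progenitors. HOXA9 (chromosome 7, hg38, 27162438 to 27165537) and HOXA10 (27170605 to 27179861) had no peak at an end or inside in any list. The wild type ENL peak nearest to both lay at 27150702 to 27150909, 11.5 kb from HOXA9 and 19.7 kb from HOXA10, with 18 summit fragments (interval 10.7 to 28.4) and an authors' fold, the summit signal over the local background as deposited, of 4.25. An H3K9ac peak with 48 fragments (interval 35.4 to 63.6) covered it, at 27150310 to 27150935. The nearest Y78A peak lay 452 kb from HOXA9 and 438 kb from HOXA10, and the nearest H3K9bhb peak 298 and 306 kb away. The remaining H3K9ac peaks of the flanks were at ends of HOXA5 and HOXA6 and, upstream, at 27183180 to 27183595 and 27198641 to 27198836. These peaks lay beside HOXA9 and HOXA10 and not on them. Other HOXA genes known from leukaemia held peaks inside, namely wild type ENL and H3K9ac in HOXA3 and H3K9ac in HOXA11 and HOXA13. These can be the same peaks as the flank peaks above, so they are not counted as further sites.

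MEIS1 and PBX3 encode homeodomain proteins of the TALE class that bind DNA together with HOX proteins. MEIS1 (chromosome 2, 66435125 to 66573869) had H3K9ac and nothing else. Its H3K9ac peak over the annotated start, at 66434850 to 66435407, held 49 fragments (interval 36.3 to 64.8) at an authors' fold of 4.11, and another with 39 fragments lay 828 bp upstream. The nearest ENL peaks were 640 kb away for Y78A and 834 kb for wild type, and the nearest H3K9bhb peak was 999 kb away. H3K9ac alone at the ends was the state of MEIS1 and CDK6 and of 4958 protein-coding genes in all (24.7%).

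PBX3 (chromosome 9, 125747373 to 125967377) differed from MEIS1 in carrying both ENL proteins and H3K9bhb. Its only Y78A peak, at 125746100 to 125746568, held 20 fragments (interval 12.2 to 30.9) over a local background of 2 fragments. Its only wild type peak, at 125746237 to 125746720, held 26 fragments (interval 17.0 to 38.1) over a background of 2.20. An H3K9bhb peak at 125746056 to 125746528 held 23 fragments (interval 14.6 to 34.5). All 3 lay upstream of the gene, beside an end of the divergent lncRNA gene PBX3-DT, and their summits were 1758, 1743 and 1854 bp before the annotated PBX3 start. H3K9ac had a peak of 21 fragments there and another of 20 fragments over the annotated start itself, where no ENL or H3K9bhb peak was called. By the authors' fold the PBX3 peak stood at percentile 86.6 of Y78A peaks, 96.6 of wild type peaks, 93.1 of H3K9bhb peaks and 45.1 of H3K9ac peaks. By fragments it stood at 48.0, 59.9, 61.0 and 27.9 in the same order of lists.

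MYC and MYB encode transcription factors that drive growth of leukaemia cells. MYC (chromosome 8, 127735434 to 127742951, read toward higher coordinates) was occupied at both ends. At its start the Y78A peak, at 127735721 to 127736376, held 28 fragments (interval 18.6 to 40.5) over a background of 5.87, and the wild type peak, at 127735106 to 127736338, held 74 fragments (interval 58.1 to 92.9) over a background of 17.3. With 74 fragments this was the highest wild type summit of the 10 genes, and it lay at percentile 96.8 of all wild type peaks by fragments. Its authors' fold was 4.10, at percentile 22.9, over a caller's background that was 13.4 times the most frequent one of the list. The labels name no control library, and whether this background held signal of the gene's own wild type peaks was not tested. The H3K9bhb peak at the MYC start held 19 fragments (interval 11.4 to 29.7) at a −log10 q of 3.24, which is near the weakest value kept in that list, 2.02, and the peak was lost at a bound of 5. By p the same wild type peak lay at percentile 91.8, so its rank within the list depends on the measure. The H3K9bhb peak of MYC had the lowest −log10 q of the H3K9bhb peaks at the 10 genes. H3K9ac had 53 and 59 fragments in a pair of peaks at the start. At the other end, Y78A had 23 fragments (interval 14.6 to 34.5) at 127743057 to 127743277 and wild type ENL had 36 (interval 25.2 to 49.8) at 127742975 to 127743255 and 49 (interval 36.3 to 64.8) at 127741704 to 127742237. No mark had a peak at that end, so ENL at the 3′ side of MYC lay outside the peaks of all 3 marks.

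MYB, a regulator of blood progenitors on chromosome 6 (135181308 to 135219172), had no peak in any of the 5 lists within 20 kb. The nearest peaks were 1031 kb away for Y78A and 1516 kb for H3K9cr, and 126 kb away for wild type ENL, H3K9bhb and H3K9ac. No gene-end peak in any list was the state of 8580 protein-coding genes, or 42.8% of them, and HOXA9, HOXA10 and MYB belonged to it.

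JMJD1C and IGF2BP3 act on chromatin and RNA. JMJD1C encodes a protein of the JmjC demethylase family that serves as a transcriptional coactivator and is needed by MLL-rearranged leukaemia cells. The gene spans 355 kb of chromosome 10 (63167225 to 63521890) and has 3 annotated starts in RefSeq. The windows around these starts are printed because they differ in base composition and wild type ENL had a peak over each. Each runs from 250 bases before the start to 50 after it (RefSeq, GRCh38.p14, minus strand), and capitals mark CG dinucleotides.
JMJD1C start at the 5′ end of the gene, chr10:63521841-63522140: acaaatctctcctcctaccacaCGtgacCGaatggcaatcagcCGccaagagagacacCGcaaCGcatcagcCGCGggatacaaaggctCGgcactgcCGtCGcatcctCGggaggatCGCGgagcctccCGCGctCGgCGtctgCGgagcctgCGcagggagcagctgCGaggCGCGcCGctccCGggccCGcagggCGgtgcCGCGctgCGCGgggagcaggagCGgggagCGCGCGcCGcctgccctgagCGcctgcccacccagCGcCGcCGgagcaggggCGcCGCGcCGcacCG
JMJD1C start 55.9 kb inside, chr10:63465928-63466227: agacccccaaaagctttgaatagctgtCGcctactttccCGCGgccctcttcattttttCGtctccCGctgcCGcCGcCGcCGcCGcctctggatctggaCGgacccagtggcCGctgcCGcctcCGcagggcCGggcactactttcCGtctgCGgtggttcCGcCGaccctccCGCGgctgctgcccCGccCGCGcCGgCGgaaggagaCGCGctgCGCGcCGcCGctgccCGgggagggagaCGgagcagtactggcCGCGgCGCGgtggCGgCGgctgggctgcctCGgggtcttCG
JMJD1C start 253 kb inside, chr10:63269194-63269493: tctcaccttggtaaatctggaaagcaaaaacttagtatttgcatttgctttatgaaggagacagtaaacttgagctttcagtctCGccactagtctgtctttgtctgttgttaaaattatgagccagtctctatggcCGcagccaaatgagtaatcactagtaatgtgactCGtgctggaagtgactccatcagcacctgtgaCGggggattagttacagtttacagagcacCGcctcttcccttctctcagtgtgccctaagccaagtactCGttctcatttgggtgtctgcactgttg

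The first 2 of these windows hold 44 and 42 CG dinucleotides and the last holds 6, beside a median of 14 over the 34943 annotated start windows of all genes. The start with few CG dinucleotides carried the strongest JMJD1C peaks of every list that had one. There Y78A held 28 fragments (interval 18.6 to 40.5) at 63268955 to 63269407, and wild type ENL held 57 fragments (interval 43.2 to 73.9) at 63268950 to 63269407. H3K9bhb held 25 fragments (interval 16.2 to 36.9) and H3K9ac 67 (interval 51.9 to 85.1), the highest summit of any list at the 10 genes apart from wild type ENL at MYC. The Y78A summit lay 39 bp after the start and the wild type summit 43 bp after it, followed by H3K9bhb at 94 bp and H3K9ac at 163 bp. Start windows with 10 or fewer CG dinucleotides had a Y78A peak in 0.844% of 15874 cases, a wild type peak in 2.1%, an H3K9bhb peak in 1.2% and an H3K9ac peak in 7.28%. For windows with 30 or more CG dinucleotides the shares were 17.7%, 35.6%, 28.5% and 66.3% in the same order of lists. An occupied start of this composition was thus uncommon in these libraries.

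The starts rich in CG dinucleotides carried weaker ENL peaks. At the 5′ end of the gene Y78A held 16 fragments (interval 9.15 to 26.0) at 63521052 to 63521275. Wild type ENL had 21 fragments (interval 13 to 32.1) at 63520858 to 63521285 and 20 (interval 12.2 to 30.9) at 63521489 to 63521944. H3K9bhb had summits of 22 and 23 fragments there, and H3K9ac a wide peak of 1482 bp with 56 fragments (interval 42.3 to 72.7). The gene REEP3, named after its position was seen, has an end within 1 kb of these peaks, so they cannot be assigned to JMJD1C alone. At the start 55.9 kb inside, where the lncRNA gene JMJD1C-AS1 lies, wild type ENL had a pair of peaks with 16 fragments each, H3K9bhb had 19 fragments and H3K9ac 64, and Y78A had no peak. Between starts, a further H3K9bhb peak of 14 fragments at 63297892 to 63298105 had no peak of any other list. Counting peaks that overlap the gene body, JMJD1C held 5 wild type peaks and 5 H3K9bhb peaks. Of the 3356 genes of at least 100 kb, 55 held as many wild type peaks or more (1.64%) and 25 as many H3K9bhb peaks or more (0.745%), with no allowance for length beyond that bound. With lists of equal length JMJD1C held 1 wild type peak (16.2% of the long genes with as many or more) and 2 H3K9bhb peaks (2.44%).

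**Figure D3:**
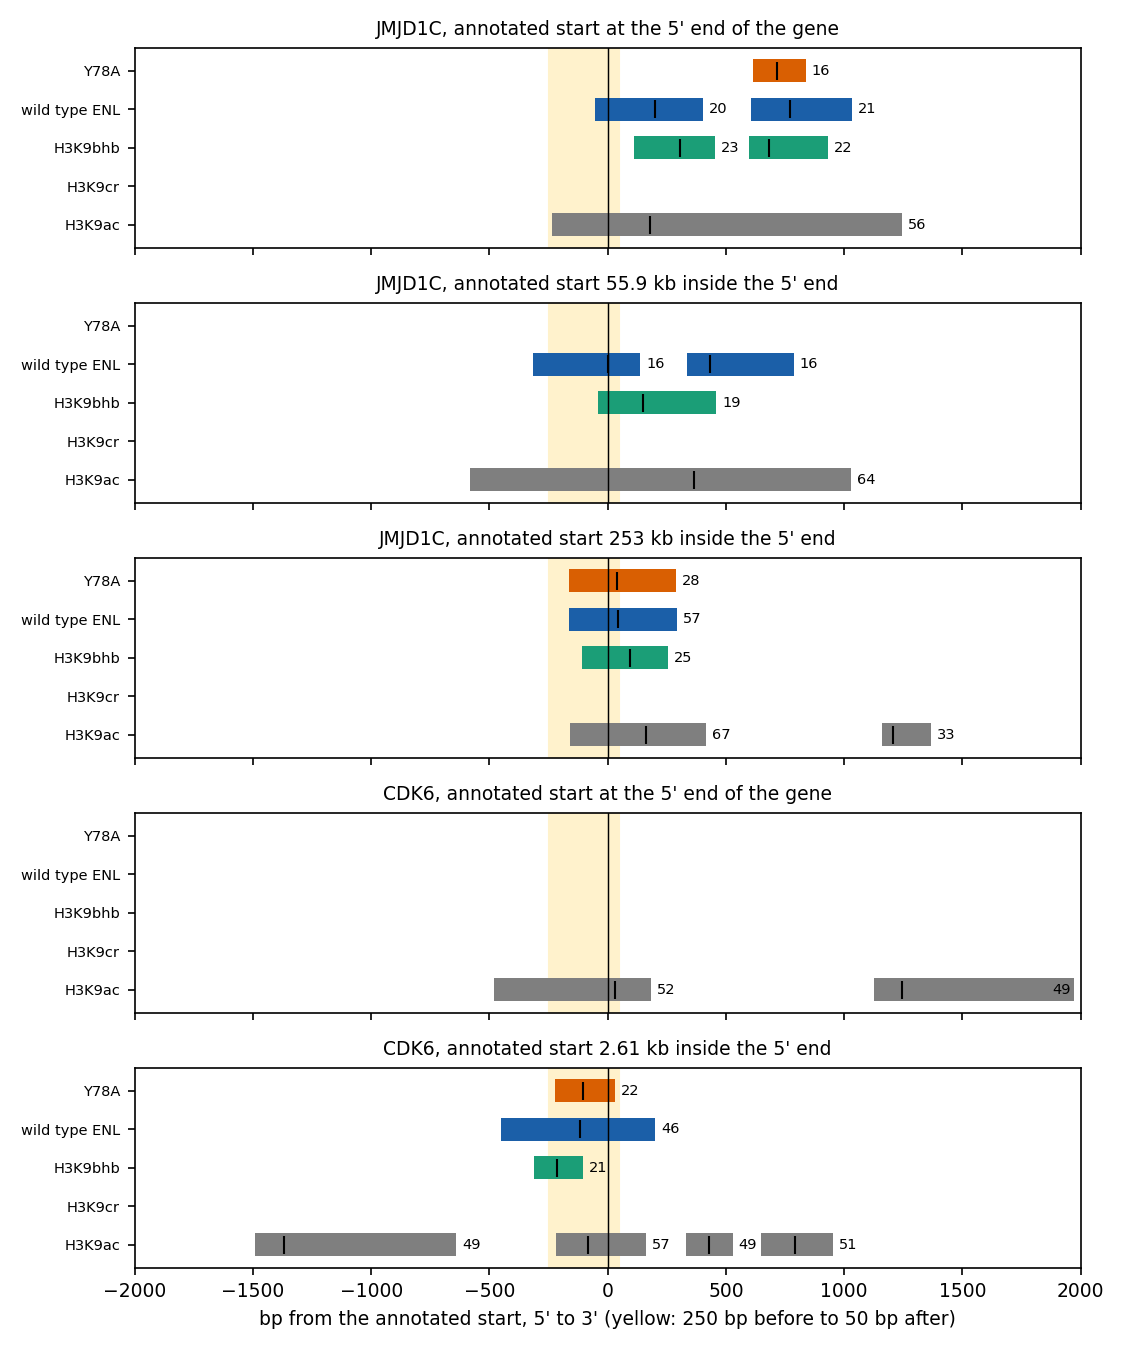
Peaks (bars) with their summits (black ticks) and summit fragments (numbers) around the annotated starts of JMJD1C and CDK6, in bp from the start in the direction of transcription, with the 5 lists from top to bottom in each panel. Both ENL proteins and H3K9bhb cover the JMJD1C start 253 kb inside. Both ENL proteins also cover the CDK6 start 2.61 kb inside, where the H3K9bhb peak runs from -313 to -106 bp and stops before the start. The CDK6 start at the 5′ end has H3K9ac only.

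IGF2BP3 encodes an RNA-binding protein that stabilises growth-related mRNAs and is made mainly in fetal and cancer cells. Of the 10 genes it was the one with wild type ENL at an end and no H3K9bhb at either end, a state with H3K9ac and without Y78A that was seen at 1252 protein-coding genes (6.25%). On chromosome 7 (23310209 to 23470491) the wild type peak at 23471056 to 23471277 held 32 fragments (interval 21.9 to 45.2) 734 bp before the annotated start, and a further wild type peak of 37 fragments (interval 26.1 to 51.0) lay 4.04 kb upstream. Another, of 20 fragments, lay 4.80 kb inside the gene at a −log10 q of 2.79, close to the lowest of the list. Y78A had no peak near this start. Its only peak, with 17 fragments (interval 9.90 to 27.2), was 16.1 kb beyond the other end of the gene, at 23293805 to 23294086, where wild type ENL held 23 (interval 14.6 to 34.5). The nearest H3K9bhb peak was 61.4 kb from the gene. H3K9ac had summits of 51 fragments 687 bp after the start and 55 fragments 733 bp before it, over backgrounds of 26.7 and 25.8 and at percentiles 0.606 and 3.01 of its list by fold, and one of its flank peaks, of 42 fragments, lay at an end of the neighbour MALSU1. No list had a peak over the annotated start itself, and wild type ENL and H3K9ac lay to its sides without called β-hydroxybutyrylation or Y78A. The background at the upstream wild type peak, 9.34 fragments in the wild type library, was 7.24 times the most frequent one. Its part in the absence of a Y78A or H3K9bhb peak was not tested.

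CDK6 and BCL2 act in the cell cycle and in survival. CDK6 encodes a kinase that works with D-type cyclins to move cells out of G1. The gene (chromosome 7, 92604921 to 92836573) has 2 annotated starts, shown here because ENL occupied one of them and not the other (RefSeq, GRCh38.p14, minus strand, CG dinucleotides in capitals).
CDK6 start at the 5′ end of the gene, chr7:92836524-92836823: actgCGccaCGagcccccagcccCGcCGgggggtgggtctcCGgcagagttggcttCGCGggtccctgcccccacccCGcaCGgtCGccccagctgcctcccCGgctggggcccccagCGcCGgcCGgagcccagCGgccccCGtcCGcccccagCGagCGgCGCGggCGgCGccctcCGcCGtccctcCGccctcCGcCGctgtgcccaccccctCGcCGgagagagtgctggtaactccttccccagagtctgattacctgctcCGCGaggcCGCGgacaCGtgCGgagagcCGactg
CDK6 start 2.61 kb inside, chr7:92833910-92834209: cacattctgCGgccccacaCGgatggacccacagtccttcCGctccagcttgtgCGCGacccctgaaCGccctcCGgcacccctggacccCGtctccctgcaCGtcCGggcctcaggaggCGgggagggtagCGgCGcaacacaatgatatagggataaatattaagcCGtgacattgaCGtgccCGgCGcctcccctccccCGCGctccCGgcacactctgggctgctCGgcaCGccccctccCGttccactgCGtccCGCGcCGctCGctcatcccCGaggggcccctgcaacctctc

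Over the start 2.61 kb inside, Y78A held 22 fragments (interval 13.8 to 33.3) at 92833929 to 92834182 and wild type ENL held 46 (interval 33.7 to 61.4) at 92833757 to 92834412. H3K9ac held 57 fragments (interval 43.2 to 73.9) over it. H3K9bhb held 21 fragments (interval 13 to 32.1) in a peak from -313 to -106 bp of this start, which overlapped the printed window and not the start itself. Over the start at the 5′ end H3K9ac held 52 fragments (interval 38.8 to 68.2) and the other 4 lists had no peak. Both windows are rich in CG dinucleotides, with 37 at the 5′ end and 29 at the start inside. The start inside the gene is beyond the 1 kb window, so CDK6 was missing from the ENL counts at gene ends. With end windows of 2500 bp it joined the Y78A, wild type ENL and H3K9bhb genes.

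CDK6 also held the strongest Y78A summit of the 10 genes, deep inside the gene. At 141 kb from the 5′ end, Y78A held 37 fragments (interval 26.1 to 51.0) at 92695365 to 92696203 and wild type ENL held 59 (interval 44.9 to 76.1) at 92695448 to 92696221. H3K9bhb held 30 fragments (interval 20.2 to 42.8) and H3K9ac 34 (interval 23.5 to 47.5) at the same place. The peak lay at percentile 92.3 of the Y78A list and 98.2 of the wild type list by p. Another 4 wild type peaks inside the gene held 11 to 19 fragments and had no Y78A or H3K9bhb peak, and 1 of them had H3K9ac. In all, 6 wild type peaks overlapped the CDK6 body, and 28 of the 3356 long genes held as many or more (0.834%). At a −log10 q of at least 5 the number was 3 (4.02% of the long genes with as many or more), and with lists of equal length it was 2 (2.32%). In the flank beyond the 3′ end, wild type ENL, H3K9bhb and H3K9ac had peaks at an end of the neighbour FAM133B.

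BCL2 encodes a protein of the mitochondrial outer membrane that blocks apoptosis. It was the only one of the 10 genes with H3K9cr, and its single wild type ENL peak overlapped no mark and no Y78A peak. On chromosome 18 (63123346 to 63320090) the wild type peak at 63218568 to 63218820, 101 kb inside the 5′ end, held 21 fragments (interval 13 to 32.1) over a background of 1.29, the most frequent one of the list. Its authors' fold of 9.61 was the highest of the wild type peaks at the 10 genes and lay at percentile 98.5 of the wild type list, although 21 fragments lay at percentile 44.3. Upstream of the gene, H3K9ac held 39 fragments (interval 27.7 to 53.3) at 63320504 to 63321222 and H3K9cr 13 (interval 6.92 to 22.2) at 63320825 to 63321045. The pair of H3K9cr and H3K9ac at gene ends, without ENL or H3K9bhb, was seen at 29 protein-coding genes (0.145%). The H3K9cr peak had a −log10 q of 2.49, so it was absent at a shared bound of 3.

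**Figure D4:**
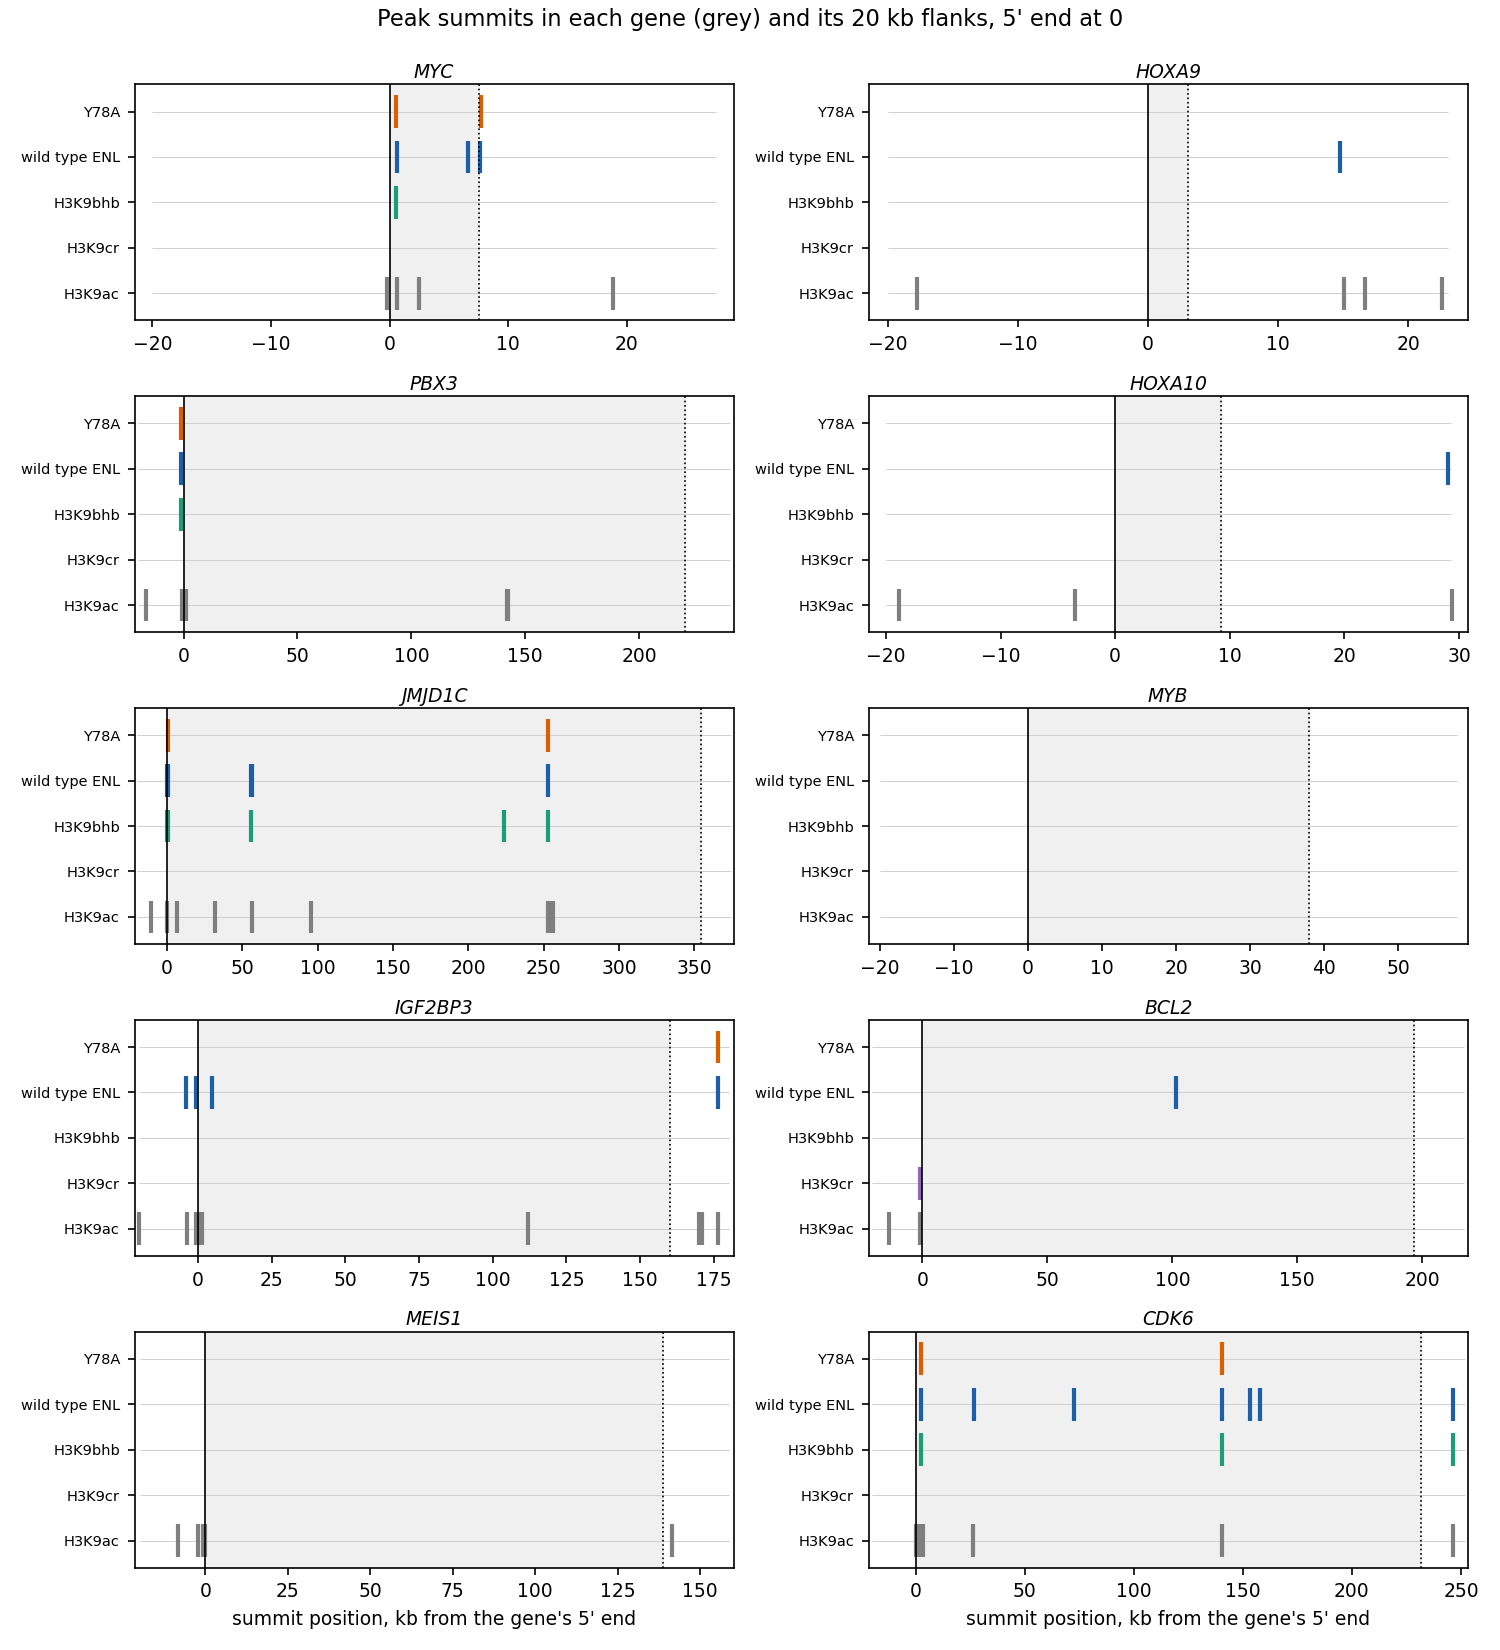
Summit positions (coloured ticks) in each gene (grey box) and in its 20 kb flanks, in kb from the 5′ end, with the 5 lists from top to bottom. Gene spans differ from 3.10 kb for HOXA9 to 355 kb for JMJD1C, MYC is drawn from its lower coordinate because the table used gives no strand for it, and Y78A ticks stand only where wild type ENL has one.

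The peaks of the lists were then set against each other, with each peak shared by HOXA9 and HOXA10 counted once. The 8 Y78A peaks at the 10 genes were all overlapped by a wild type peak, as 91.3% of all Y78A peaks were. Of the same 8, 6 were overlapped by H3K9bhb (79% of all Y78A peaks), 0 by H3K9cr (31.3%) and 7 by H3K9ac (85.8%). Of the 22 wild type peaks, 8 were overlapped by Y78A (42.9% of all wild type peaks), 10 by H3K9bhb (59.8%), 0 by H3K9cr (19.1%) and 15 by H3K9ac (78.9%). Of the 10 H3K9bhb peaks, 6 were overlapped by Y78A (46.4% of all H3K9bhb peaks), 9 by wild type ENL (74.7%) and 9 by H3K9ac (82.3%). Of 47 H3K9ac peaks, 7 were overlapped by Y78A (14.7% of all H3K9ac peaks), 14 by wild type ENL (28.6%), 8 by H3K9bhb (23.9%) and 1 by H3K9cr (8.59%). The 1 H3K9cr peak, at BCL2, was overlapped by H3K9ac (70.3% of all H3K9cr peaks). Most H3K9ac peaks at these genes were overlapped by no ENL peak, as over the whole list. The H3K9ac list holds 31493 peaks beside 11394 of wild type ENL and was kept to a lower −log10 q. List length alone keeps such a share low, so nothing about acetylated places is read from it.

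Sorted by marks, 10 of the 22 wild type peaks lay on H3K9bhb and H3K9ac, and Y78A shared 6 of them, where 55% of all wild type peaks of that kind were shared. Another 5 lay on H3K9ac only, with 1 shared, at the flank of IGF2BP3 (19.3% of all such peaks). The remaining 7 lay on no mark, with 1 shared, at the 3′ end of MYC (12.2% of all such peaks). Strength was then compared. Wild type peaks shared by Y78A held 21 to 74 fragments with a median of 41, and those not shared held 11 to 49 with a median of 19.5. The ranges overlap, and the shared peaks had the higher median. Wild type peaks on H3K9bhb held 16 to 74 fragments (median 23.5) and those off it 11 to 49 (median 20.5). Neither contrast was computed over all wild type peaks, so neither is read as a trait of these genes.

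At the 8 shared places the Y78A summit always held fewer fragments than the wild type summit. The ratio of Y78A to wild type fragments ran from 0.378 to 0.769 with a median of 0.633. Over all 4952 shared places in the genome the median was 0.688, with quartiles of 0.588 and 0.813, so lower Y78A summits were common across the genome, and the read totals of the libraries are unknown. The most frequent Y78A background was 0.845 times the wild type one. The start of MYC stood lowest, at 0.378, and 0.747% of all shared places had a ratio that low or lower. The local background there was also lower, at 5.87 fragments in Y78A against 17.3 in wild type ENL, a ratio of 0.339 at percentile 0.202 of all shared places, whose median was 0.67. Taken above the local background the MYC ratio was 0.39, at percentile 1.51. That background may itself hold ENL signal, so this ratio is no independent correction. At the 3′ end of MYC the ratio was 0.639, at percentile 38.7, with a background ratio of 0.351. Wild type fragments are the divisor of the ratio, so choosing places by high wild type fragments lowers the ratio by itself. A shared place also needs a called Y78A peak, so weak wild type places cannot show the lowest ratios. Ratios of strong and weak places are therefore not compared. Over the 1685 strong places, those with at least 40 wild type fragments, the median was 0.643. The MYC start lay at percentile 1.78 of those. The starts inside CDK6 and JMJD1C followed at 0.478 and 0.491, at percentiles 10.3 and 12.3 of the strong places, while the site deep inside CDK6, at 0.627, lay at 46.2. PBX3, the JMJD1C 5′ end and the IGF2BP3 flank stood at 0.769, 0.762 and 0.739, all above the median of all places. No replicate exists to say whether these ratios would recur.

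**Figure D5:**
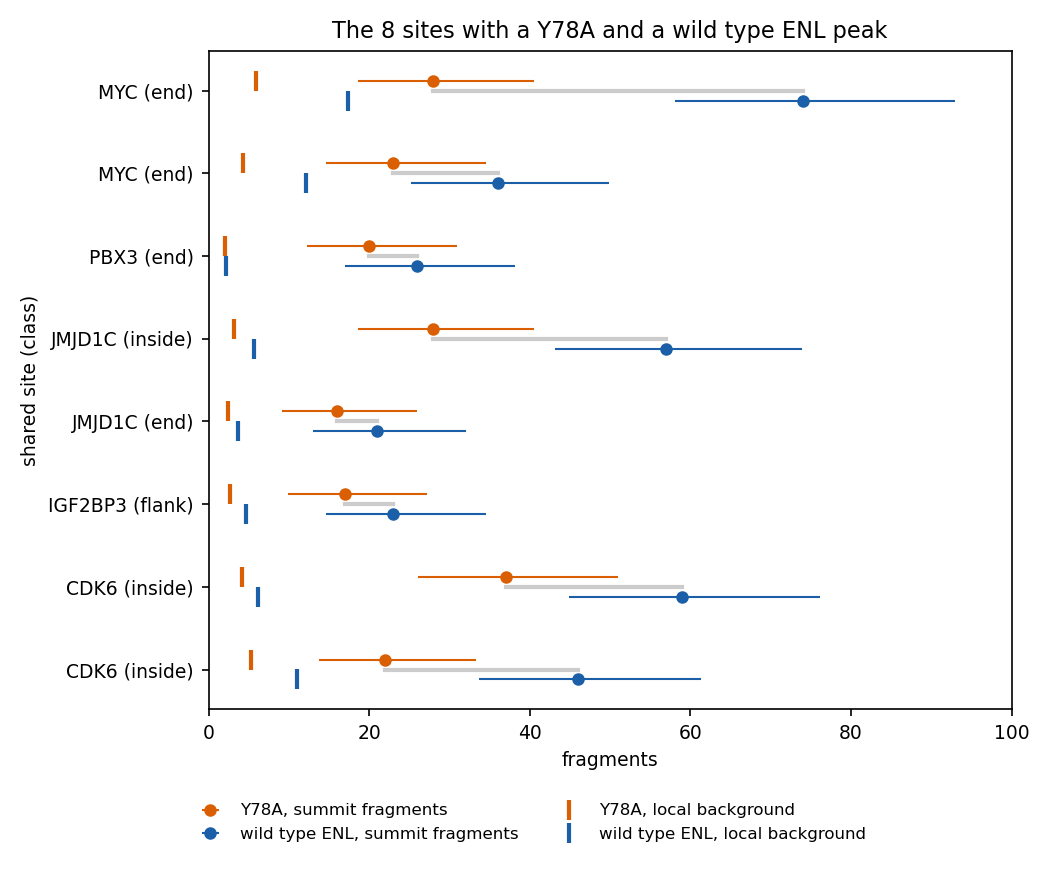
Summit fragments (points, with exact 95% Poisson intervals) and local background (vertical ticks) of Y78A (orange) and wild type ENL (blue) at the 8 shared places of the 10 genes. The intervals of the libraries are apart at the start of MYC (28 and 74 fragments). They are also apart at the JMJD1C start 253 kb inside (28 and 57) and the CDK6 start 2.61 kb inside (22 and 46), and overlap at the other 5. Fragments are not scaled between libraries, and the median ratio over all shared places was 0.688. A gap between intervals is therefore no test of a difference at that site.

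A further 30 genes known from MLL-rearranged leukaemia were counted in the same way. Gene-end peaks were present at 2 of them for Y78A, 6 for wild type ENL, 4 for H3K9bhb, 0 for H3K9cr and 13 for H3K9ac, against the 14.6%, 28.6%, 23.8%, 4.49% and 56.4% of all protein-coding genes given above. The genes with an ENL peak were CPEB2, SKIDA1, HMGA2, CDKN2C, ADAM10 and DOT1L. The other HOXA genes of that list, HOXA3, HOXA5, HOXA6, HOXA7, HOXA11 and HOXA13, had no ENL or H3K9bhb peak at an end. HOXA5 and HOXA6 had H3K9ac at an end, and HOXA3 had wild type ENL inside the gene.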

How the data were processed

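CUT&Tag peak lists of 5 HepG2 libraries were analysed, 1 per group, grouped by sample title. Per the submitters' processing notes the build was hg38 and the tools included MACS2, Bowtie2, FastQC and deepTools. The labels name no version, parameter, control library or read total. In the deposited lists the fold is the ratio of summit signal to the caller's background, p and q are −log10 values, the score is 10 times the −log10 q as a whole number, and interval bounds and summit offsets are in base pairs. The lowest deposited −log10 q was 2.04 in Y78A, 2.05 in wild type ENL, 2.02 in H3K9bhb, 1.34 in H3K9cr and 1.31 in H3K9ac, so the lists were kept to different thresholds, which lengthens the last 2.

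Peaks on the 24 standard chromosomes were placed on protein-coding genes of RefSeq GRCh38.p14 by overlap of at least 1 bp. That table gives no exons, and strand came from the start windows, found for 9 of the 10 genes and 15843 protein-coding genes. Fragments n and background b were solved from fold = (n + 1)/(b + 1) and the Poisson p, which gave whole fragments for at least 99.98% of peaks in every list (relative tolerance 3e-05). The method was checked on simulated peaks. Folds were used within a list only. CG content, the bound of 40 fragments and the start windows were chosen after the data were seen. The members and lists were chosen with earlier results of these data known. All members were named. Of the other leukaemia genes, those with an ENL peak at an end were named and the 4 with the highest wild type fold got values. Neighbours were named where an end lay within 1 kb of a flank peak. Python 3.11.15, numpy 2.4.6, pandas 2.3.3, scipy 1.17.1 and matplotlib 3.10.9 were used. Alternatives covered window, flank, q bound, list length, summit placement and overlap rule.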

Additional observations from a re-analysis of the deposited data

How the results depend on the processing

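No paired analysis was possible because each group has 1 library. Counts of genes or peaks were recomputed 260 times under the alternatives, and 47 moved by over 1.5 times. Of 300 numbers of peaks per gene and list, 45 moved. No count of genes or overlaps over the whole group did so with flanks of 10 or 50 kb, end windows of 2500 bp, summit placement or another overlap rule, nor with the 5′ end only, which could be run on 9 of the 10 genes (without MYC) and 23 of the 30 other genes. Shares in brackets are of all protein-coding genes in the same setting. End windows of 500 bp left 1 gene for Y78A (MYC, 13.4%), 2 for wild type ENL (MYC and JMJD1C, 26.8%) and 0 for H3K9cr (3.91%). Annotated start windows, chosen after the data were seen and present for 9 genes without MYC, gave 2 genes for wild type ENL (JMJD1C and CDK6, which was not among the gene-end genes), 0 for H3K9cr and 4 for H3K9ac. A −log10 q bound of 3 or 5 removed the H3K9cr peak, so that its counts in every window, its number of peaks and its overlaps with H3K9ac were 0 (gene ends 3.47% at 3 and 1.51% at 5). The bound of 5 and the lists of equal length both removed the H3K9bhb peak of MYC. The bound of 5 also left 24 H3K9ac peaks in all, 5 of them overlapped by H3K9bhb, a count without a computed share over all peaks. It left 0 of the 30 other leukaemia genes for Y78A at an end (11.8%).

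With every list cut to its 3852 strongest peaks, H3K9ac was left at 0 genes at the ends (16.9%), 1 at an end or inside (18.9%) and 2 within 20 kb (25.2%), with 3 peaks, of which 1 was overlapped by Y78A, 1 by wild type ENL, 2 by H3K9bhb and 0 by H3K9cr. Wild type ENL was left at the ends of 2 genes (MYC and PBX3, 11.9%) with 7 peaks, 4 of them overlapped by Y78A, 3 by H3K9bhb and 1 by H3K9ac. Y78A was left with 5 peaks, 4 of them overlapped by wild type ENL, 3 by H3K9bhb and 1 by H3K9ac. H3K9bhb was left with 5 peaks, 3 of them overlapped by Y78A, 3 by wild type ENL and 2 by H3K9ac, and H3K9cr with 0 overlapped by H3K9ac. No share over all peaks was computed for overlaps in this setting, so nothing is read from them. Among the 30 other leukaemia genes 0 remained at an end for Y78A (10.7%), 2 for wild type ENL (11.9%), 1 for H3K9bhb (11.4%) and 1 for H3K9ac (16.9%). The H3K9ac list is the longest and lost the most peaks by this cut. Why its peaks at the 10 genes fell from 47 to 3 was not tested.

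Depth limits the missing peaks. At the most frequent background of each list the weakest called summits held 8 to 10 fragments, and a higher background needs more.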

Other observations

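Of the 30 other leukaemia genes, the 4 with the highest wild type fold at an end were CDKN2C, SKIDA1, ADAM10 and CPEB2. CDKN2C, which encodes an inhibitor of CDK4 and CDK6, had an authors' fold of 7.26 and 20 summit fragments for wild type ENL on chromosome 1 (50960118 to 50960558), with H3K9bhb and H3K9ac and no Y78A peak at its ends. SKIDA1 had a fold of 4.31 in Y78A and 5.02 in wild type ENL, where its summit held 30 fragments. ADAM10, which encodes a membrane protease, had 4.96 in Y78A and 4.86 in wild type ENL. Folds of the 2 lists are not on a common scale. CPEB2, which encodes a regulator of mRNA translation, had 4.26 in wild type ENL and no Y78A peak at an end. DOT1L, which encodes the H3K79 methyltransferase that works with ENL and was chosen for values after they were seen, had 52 wild type fragments at a fold of 2.89 on chromosome 19 (2163713 to 2164059) and an H3K9ac peak, without Y78A or H3K9bhb at an end. With peaks inside the genes counted, Y78A was at 7 of the 30, wild type ENL at 12, H3K9bhb at 10, H3K9cr at 2 and H3K9ac at 20, beside 19.1%, 35.9%, 31.2%, 9.34% and 64.8% of all protein-coding genes.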
